A study of Mus musculus with 24 samples.

Results

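Chondrocytes stimulated with IL-1β for 36 h were compared between co-culture with dermal fibroblasts and normal culture, gene by gene. The comparison was chosen by the sample labels alone and uses 6 of the 24 libraries of the series: 3 of co-culture with IL-1β (libraries FCI136, FCI236 and FCI336) and 3 of normal culture with IL-1β (CI136, CI236 and CI336). All 6 come from primary chondrocytes of wild-type mice, whose poly(A) mRNA was enriched before sequencing. The cells were isolated from cartilage with collagenase II and DNase I and grown in the lower chamber of a transwell plate. In such a plate a porous insert keeps cell populations apart while secreted factors pass. The co-cultures shared their wells with primary dermal fibroblasts taken from skin with collagenase I, and the normal cultures held chondrocytes alone. Both groups received IL-1β at 10 ng/ml, added 24 h after the cells had attached, and the chondrocytes were collected 36 h after that addition. The comparison asks what the presence of the fibroblasts changes in chondrocytes that already receive an inflammatory stimulus. The 18 other libraries are the same pair of cultures without IL-1β at 36 h and all 4 culture and IL-1β combinations at 72 h. They are used below to show where this effect differs, and they also enter the estimate of spread behind the tests of the main fit. The sources used here do not give the age of the animals, the medium of the co-cultures, or whether replicates came from separate animals or wells. The p-values therefore measure only the spread between libraries of a group, taken over all 24, which may be technical.

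Chondrocytes are the only resident cells of cartilage and keep up its matrix of type II collagen and aggrecan. IL-1β binds its receptor on them and, through NF-kB and MAP kinases, switches on cytokines, proteases, nitric oxide and prostaglandin synthesis while it lowers matrix genes and cell division. Fibroblasts release growth factors, cytokines and matrix proteins that can reach neighbouring cells through the medium. Among the genes that respond most readily to such signals are the immediate early genes, whose transcription starts within minutes of ERK or calcium signalling without new protein synthesis and which are shut down again by feedback phosphatases.

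The 6 libraries were alike in content. Their FPKM summed to between 455139 and 471835 per library, between 11553 and 11590 genes reached 1 FPKM, and libraries of one group correlated across genes at 0.997 to 0.998 (Pearson). FPKM scales fragments by gene length and by the mapped fragments of a library. The depth behind it is unknown, so no counting interval is given. The labelled cell type was checked against markers. Col2a1, type II collagen, lay between 125 and 131 FPKM in co-culture and between 112 and 119 FPKM in normal culture, but Acan was at 1.44 FPKM or less and Matn3, Cnmd and Col11a2 were under 1 FPKM in all 6 libraries. Markers that dermal fibroblasts also express were abundant in both cultures (13 of 15 at 1 FPKM or more). Their summed level, mostly Col3a1, Dcn and Lum, was 4581 to 4689 FPKM in co-culture and 5273 to 5463 FPKM in normal culture. All 12 skeletal muscle markers were present, with sums of 253.7 to 276 FPKM in co-culture and 303 to 337 FPKM in normal culture. Neutrophil markers summed to 5.84 to 6.8 FPKM in co-culture and 3.61 to 4.82 FPKM in normal culture, nearly all of it S100a8, with Ly6g and Elane at 0 throughout. Macrophage markers overlapped between the cultures (59.2 to 71.1 FPKM in co-culture, 63.7 to 74.6 FPKM in normal culture). Osteoblast markers summed to 2.6 to 3.4 FPKM in co-culture and 3.43 to 4.27 FPKM in normal culture. Glial and melanocyte markers summed to 5.94 to 6.43 FPKM in co-culture and 6.8 to 7.4 FPKM in normal culture. Adipocyte markers, of which Fabp4 made up nearly the whole sum, reached 74.3 to 77.8 FPKM in co-culture and 67.5 to 69.8 FPKM in normal culture. Keratinocyte and endothelial markers summed to under 2 FPKM in every library. These are bulk libraries, so fewer cells of a type and less RNA per cell cannot be told apart, and the part of such cells in the results below was not tested.

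With IL-1β present, co-culture changed many chondrocyte genes by small amounts and a few by a large one. The genes with the largest rise were immediate early genes, led by Fos, Egr1, Egr2, Ier2 and Nr4a1. Genes of mitosis and DNA replication, of serine and amino acid synthesis, and part of the hypoxia and glycolysis genes rose by less. Single genes of secreted inhibitors, inflammation, complement, joint lubrication and mineralization fell. Levels below are in FPKM, and changes are co-culture minus normal culture on the log2(FPKM + 1) scale, which understates the change of genes near 0. They were tested with limma over 12178 genes, with Benjamini-Hochberg adjustment and an adjusted p under 0.05 as the threshold.

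Of the 12178 genes tested, 1285 passed (10.6%), of which 777 were higher (6.38%) and 508 lower (4.17%) in co-culture. The changes that passed had a median size of 0.28, and 1170 of the 1285 (91.1%) were under 1.5-fold. A 2-fold change on the log2(FPKM + 1) scale was reached by 12 higher genes (0.0985%) and by 0 lower genes, and also by 0 at an unadjusted p under 0.05 (limma). With a pseudocount of 0.1 in place of 1, 27 higher and 3 lower genes reached it. The 12 at a pseudocount of 1 are Fos, Egr1, Egr2, Ier2, Nr4a1, Zfp36, Klf2, Dusp5, Btg2, Dusp1, Junb and Egr3. At an unadjusted p under 0.05 the comparison gave 2886 genes. Leaving out 1 of the 6 libraries lowered the counts to between 468 and 635 higher and between 270 and 359 lower genes. Fitted on the 6 compared libraries alone, without the spread of the other groups, 962 genes were higher and 676 lower.

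**Figure D1:**
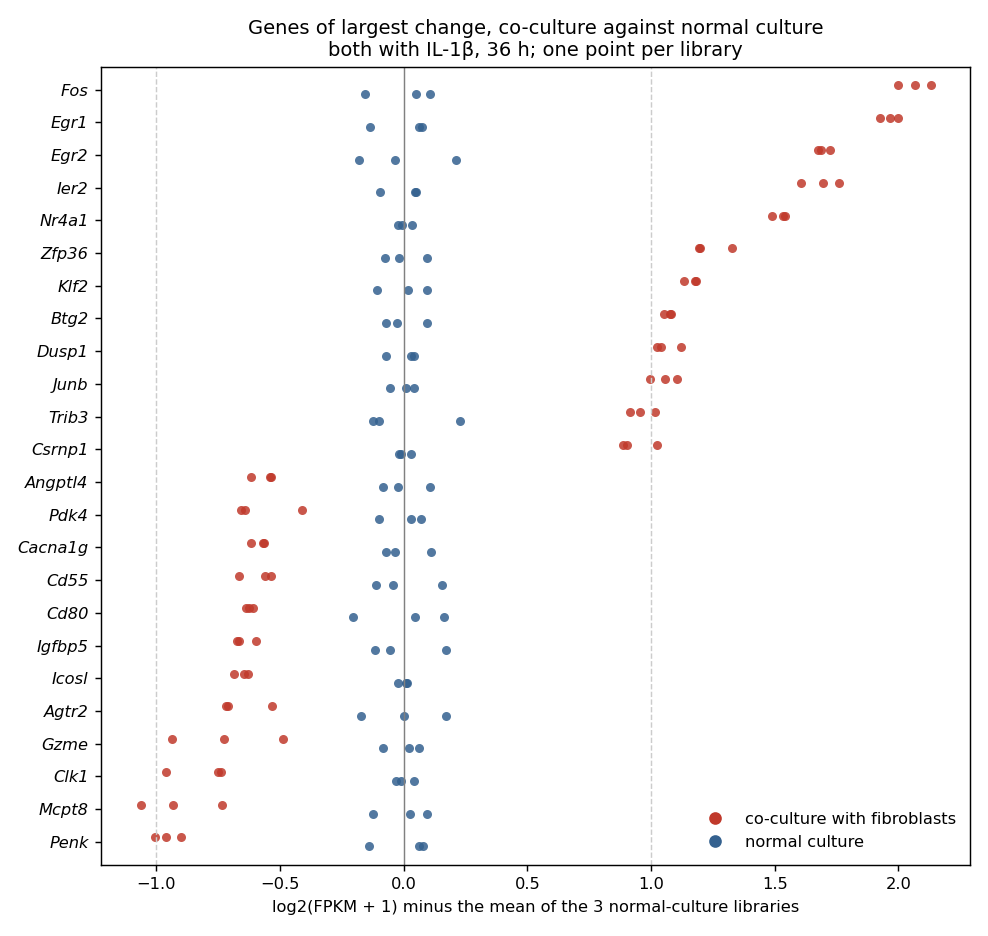
The 24 genes with the largest changes, 12 in each direction, at a mean of at least 5 FPKM. Each point is 1 library's log2(FPKM + 1) minus the mean of the 3 normal-culture libraries, co-culture in red and normal culture in blue, with dashed lines at a log2 change of 1 in either direction; the points of the groups do not overlap for any of the 24 genes, a condition of the choice, and Fos, at 2.06, stands farthest to the right.

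The immediate early genes are shown first with the DNA just before their start sites, which is part of the DNA through which ERK and calcium signals are known to reach them. Serum response factor binds the CArG box and CREB binds the sequence TGACGTCA or its shorter form TGACG. The 250 bases before the start of 3 higher genes follow, 5′ to 3′ on the strand of the gene, from RefSeq on GRCm38.p6, with TGACG in capitals in Fos, the CArG box in Zfp36 and TGACGTCA in Dusp1.

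Fos (chr12:85473640-85473889, plus strand): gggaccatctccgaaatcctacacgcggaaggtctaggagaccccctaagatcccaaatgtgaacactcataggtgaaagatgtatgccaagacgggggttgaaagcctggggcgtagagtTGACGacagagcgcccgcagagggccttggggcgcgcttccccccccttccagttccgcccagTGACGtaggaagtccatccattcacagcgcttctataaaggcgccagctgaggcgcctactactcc

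Zfp36 (chr7:28379229-28379478, minus strand): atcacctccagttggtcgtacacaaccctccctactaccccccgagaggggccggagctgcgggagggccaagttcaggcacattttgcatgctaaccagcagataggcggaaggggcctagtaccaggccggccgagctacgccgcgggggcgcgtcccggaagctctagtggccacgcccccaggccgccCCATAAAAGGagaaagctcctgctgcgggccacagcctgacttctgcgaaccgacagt

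Dusp1 (chr17:26508473-26508722, minus strand): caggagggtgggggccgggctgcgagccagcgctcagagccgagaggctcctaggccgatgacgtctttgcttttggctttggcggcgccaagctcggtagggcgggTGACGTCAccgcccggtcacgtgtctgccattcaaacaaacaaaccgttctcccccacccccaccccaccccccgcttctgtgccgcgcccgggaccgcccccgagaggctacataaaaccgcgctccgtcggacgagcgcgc

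In Fos, TGACG stands 129 to 125 and 66 to 62 bases before the start. The CArG box of Zfp36 stands 58 to 49 and the TGACGTCA of Dusp1 begins 143 bases before it. Of the 20 immediate early and ERK feedback genes higher in co-culture, 14 had a promoter in the table. TGACG, on either strand and counted also within TGACGTCA, was in 9 of the 14 (64.3%), against 30.8% of the 9757 tested genes with a promoter. The CArG box was in 2 of the 14 (14.3%; Egr2 and Dusp5), against 1.39% of tested genes, and TGACGTCA in 1 (7.14%; Dusp1), against 3.08%. A match is a description of these letters and no evidence of binding.

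Immediate early and ERK feedback genes rose broadly in co-culture with IL-1β. Of 31 members, all of which passed the filter on low values, 20 were higher and 1 was lower in co-culture, with a median log2 change of 0.43 over the list and 0.00486 over all genes tested. The members ranged between -0.38 (Atf3) and 2.06 (Fos). All 21 that passed had libraries that did not overlap between the cultures, a separation that 17.4% of all genes showed in the higher and 15.2% in the lower direction.

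Fos encodes a subunit of the AP-1 transcription factor (ENSMUSG00000021250, chr12:85473890-85477273, plus strand on GRCm38). It stood at 29.3, 32.2 and 30.8 FPKM in co-culture, against 5.81, 6.85 and 7.18 FPKM in normal culture (log2 change 2.06, SE 0.055, adjusted p = 2.85e-17). Every co-culture library lay far above every normal-culture library. Egr1, a zinc finger factor switched on by ERK signalling, stood at 217, 222 and 211 FPKM in co-culture, against 49.9, 57.4 and 57.8 FPKM in normal culture (log2 change 1.96, SE 0.053, adjusted p = 2.85e-17). Its relative Egr2 stood at 8.23, 8.14 and 8.47 FPKM in co-culture, against 1.53, 1.8 and 2.32 FPKM in normal culture (log2 change 1.70, SE 0.086, adjusted p = 3.56e-12). The groups did not overlap for Egr1 or Egr2, although the normal-culture libraries of Egr2, at a low level, were spread. Egr3, the least expressed of the 3 Egr genes, stood at 2.42, 1.95 and 2.41 FPKM in co-culture, against 0.53, 0.53 and 0.68 FPKM in normal culture (log2 change 1.04, SE 0.085, adjusted p = 2.45e-08).

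Other transcription factor genes of this kind rose as well. Nr4a1, an orphan nuclear receptor (ENSMUSG00000023034, chr15:101254269-101274795, plus strand), stood at 115, 111 and 115 FPKM in co-culture, against 38.7, 38.3 and 39.8 FPKM in normal culture (log2 change 1.52, SE 0.059, adjusted p = 4.61e-14). Ier2, a nuclear protein induced by serum, stood at 103, 98.5 and 92.7 FPKM in co-culture, against 27.8, 30.8 and 30.8 FPKM in normal culture (log2 change 1.69, SE 0.076, adjusted p = 4.94e-13). For both genes the lowest co-culture library was far above the highest normal-culture library. Junb, an AP-1 partner of Fos, averaged 165 ± 6.16 FPKM in co-culture and 79.2 ± 2.78 FPKM in normal culture (SD, n = 3 each; log2 change 1.05, SE 0.051, adjusted p = 1.72e-12). Klf2, a Krüppel-like factor, averaged 14.8 ± 0.3 FPKM in co-culture and 6.08 ± 0.493 FPKM in normal culture (log2 change 1.16, SE 0.054, adjusted p = 8.46e-13). The changes of Jun (0.44), Fosl1 (0.39), Fosb (0.43), Myc (0.43), Klf6 (0.51) and Klf4 (0.28) were smaller and also passed.

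Several feedback inhibitors of ERK signalling rose. Dusp1, a phosphatase of MAP kinases, stood at 71.9, 67.1 and 68 FPKM in co-culture, against 33.2, 33.5 and 30.9 FPKM in normal culture (log2 change 1.06, SE 0.077, adjusted p = 3.11e-09). Its relative Dusp5, which acts on nuclear ERK, stood at 3.56, 4.41 and 4.4 FPKM in co-culture, against 1.51, 1.5 and 1.08 FPKM in normal culture (log2 change 1.12, SE 0.10, adjusted p = 1.79e-07). Spry2, a Sprouty inhibitor of receptor tyrosine kinase signalling, stood at 18.2, 17.7 and 18 FPKM in co-culture, against 10.2, 9.06 and 10.5 FPKM in normal culture (log2 change 0.80, SE 0.073, adjusted p = 1.43e-07). For each of these 3 the highest normal-culture library was below the lowest co-culture library. Phlda1 averaged 51.3 ± 0.898 FPKM in co-culture and 26.8 ± 0.381 FPKM in normal culture (log2 change 0.91) and Ier3 averaged 248 ± 4.02 FPKM in co-culture and 155 ± 15.4 FPKM in normal culture (log2 change 0.68). Dusp6 rose by 0.22 (adjusted p = 0.00969), a call lost without co-culture library 1 or normal-culture library 2 (adjusted p up to 0.0652) and after rescaling to TPM (0.0514). The 10 members that were not called changed by between -0.14 (the ERK inhibitor gene Spred3) and 0.21 (the ERK-induced factor gene Etv4). The AP-1 members Fosl2 (-0.11, adjusted p = 0.179) and Jund (0.18, adjusted p = 0.127) were among them, and Etv4 passed without normal-culture library 2 (adjusted p = 0.0448).

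Outside the list, the mRNA decay factor Zfp36, which shortens the life of cytokine transcripts, stood at 64.8, 70.8 and 64.5 FPKM in co-culture, against 26.2, 29.6 and 27.3 FPKM in normal culture (log2 change 1.24, SE 0.054, adjusted p = 2.59e-13). Btg2, a growth-restraining gene induced by p53 and by growth factors, stood at 112, 114 and 115 FPKM in co-culture, against 51, 52.6 and 57.4 FPKM in normal culture (log2 change 1.07, SE 0.046, adjusted p = 2.59e-13). Csrnp1, a nuclear protein induced through AXIN1, averaged 10.2 ± 0.594 FPKM in co-culture and 4.83 ± 0.102 FPKM in normal culture (log2 change 0.94, SE 0.053, adjusted p = 2.5e-11). Their groups did not overlap. Of 2 ligands of the EGF receptor, Hbegf stood at 15.8, 15.5 and 16.4 FPKM in co-culture, against 10.7, 11.4 and 10.8 FPKM in normal culture (log2 change 0.50, SE 0.079, adjusted p = 0.000215) and Ereg at 46.7, 46 and 49.7 FPKM in co-culture, against 34.4, 29.6 and 39.3 FPKM in normal culture (log2 change 0.46, SE 0.12, adjusted p = 0.0155). The call for Ereg was lost without co-culture library 3 or normal-culture library 2 (adjusted p up to 0.09). Hbegf and Ereg were the only 2 called higher among 37 tested growth factors and receptors, a list without an excess of higher calls beside the 6.38% of all genes tested.

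Atf3, an immediate early and stress gene, went the other way. It stood at 5.73, 5.31 and 5.41 FPKM in co-culture, against 6.77, 8.31 and 7.28 FPKM in normal culture (log2 change -0.38, SE 0.093, adjusted p = 0.0103). The call was lost without normal-culture library 2, the highest of the 6 (adjusted p = 0.0631).

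**Figure D2:**
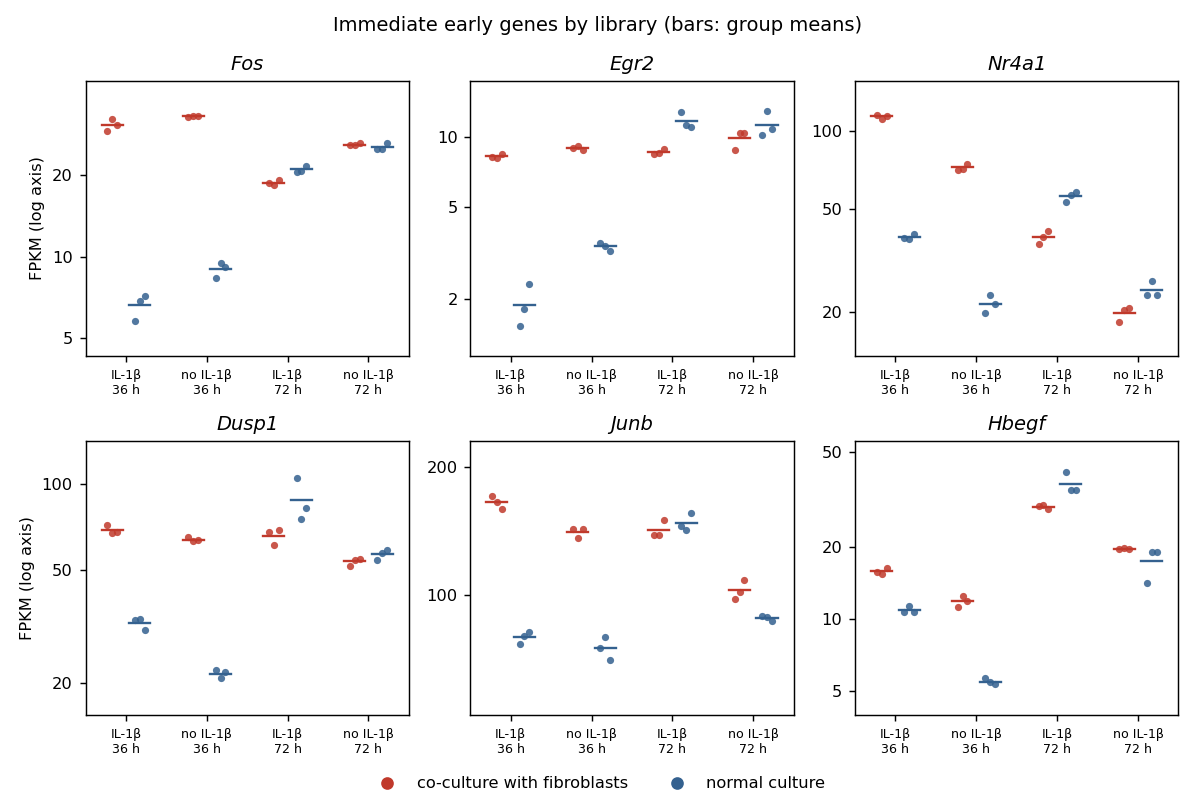
FPKM on a log axis of 6 genes in each library, for 4 pairs of cultures, co-culture in red to the left of normal culture in blue, with group means as bars. In the IL-1β pair at 36 h the co-culture libraries are above the normal-culture libraries for all 6 genes (Fos, 29.3 to 32.2 against 5.81 to 7.18 FPKM), while at 72 h with IL-1β the co-culture mean of Fos (18.8 FPKM) is below that of normal culture (21.0 FPKM).

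Genes of cell division were higher in co-culture throughout the mitosis list. All 25 members rose, with changes between 0.37 (Cdk1) and 0.86 (Birc5) and a median of 0.66. The libraries of the 2 cultures did not overlap for any of them, a separation that 17.4% of all genes tested showed in the higher direction. Of the 25 members of the DNA replication list 16 rose and 0 fell, with a median of 0.34. All 50 members passed the filter. In normal culture without IL-1β at 36 h, 49 of the 50 had a mean level above that of the co-culture with IL-1β, the exception being Rrm2, a subunit of ribonucleotide reductase (log2 change 0.37 in co-culture with IL-1β). The call for Cdk1 was lost without co-culture library 1 or 3 or normal-culture library 1 or 3 (adjusted p up to 0.128) and with no filter on low values (0.0525).

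Cdc20 activates the anaphase-promoting complex (ENSMUSG00000006398, chr4:118432901-118437352, minus strand). It stood at 14.5, 14.6 and 15.9 FPKM in co-culture, against 8.59, 9.05 and 7.81 FPKM in normal culture (log2 change 0.76, SE 0.094, adjusted p = 1.63e-05), and at 25.5 ± 1.25 FPKM in co-culture and 28.6 ± 0.982 FPKM in normal culture without IL-1β. Mki67, the proliferation marker Ki-67, stood at 8.1, 8.36 and 8.94 FPKM in co-culture, against 4.33, 4.59 and 5.16 FPKM in normal culture (log2 change 0.74, SE 0.11, adjusted p = 9.06e-05). For both genes the gap between the groups was wider than the spread within either. Ccnb1, the cyclin partner of Cdk1 at entry into mitosis, stood at 16.9, 17.5 and 16.8 FPKM in co-culture, against 9.74, 10.5 and 10.8 FPKM in normal culture (log2 change 0.67, SE 0.089, adjusted p = 2.94e-05). Birc5, survivin of the chromosomal passenger complex, stood at 13.7, 14.4 and 16.2 FPKM in co-culture, against 6.45, 9.76 and 7.14 FPKM in normal culture (log2 change 0.86, SE 0.14, adjusted p = 0.000285). Its normal-culture libraries were the more spread, with library 2 the highest. Ccna2, the cyclin of S phase and G2, averaged 12.1 ± 0.14 FPKM in co-culture and 6.38 ± 0.435 FPKM in normal culture (log2 change 0.83), and the mitotic kinase gene Plk1 averaged 9.36 ± 0.488 FPKM in co-culture and 5.11 ± 0.587 FPKM in normal culture (log2 change 0.76).

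The replication genes with the largest rise were at low levels. Gins1, of the replicative helicase complex, stood at 2.14, 2.45 and 2.54 FPKM in co-culture, against 0.98, 1.15 and 0.56 FPKM in normal culture (log2 change 0.84, SE 0.11, adjusted p = 4.01e-05). Mcm3, a subunit of the MCM helicase, stood at 5.92, 5.78 and 6.17 FPKM in co-culture, against 2.72, 3.88 and 3.23 FPKM in normal culture (log2 change 0.71, SE 0.11, adjusted p = 0.000188). Mcm5, of the same helicase, stood at 3.79, 3.34 and 3.71 FPKM in co-culture, against 1.29, 2.16 and 2 FPKM in normal culture (log2 change 0.72, SE 0.12, adjusted p = 0.000247). In all 3 genes normal-culture libraries differed among themselves by more than the co-culture libraries did, yet none reached the co-culture range. Pcna, the sliding clamp of DNA polymerases, was not called (0.21, adjusted p = 0.078), nor was Ccne1 (0.18, adjusted p = 0.366). Cdkn1a, which encodes the cell cycle inhibitor p21, stood at 449, 426 and 409.5 FPKM in co-culture, against 463, 466 and 468 FPKM in normal culture and was not called (log2 change -0.12, SE 0.079, adjusted p = 0.368). On the 6 compared libraries alone Pcna passed (adjusted p = 0.0229), and also with a block for the replicate number (0.0472). With 1 library left out, 23 to 25 mitosis genes and 11 to 14 replication genes were called higher.

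The promoters of mitotic genes commonly carry CCAAT, bound by NF-Y, and TTTGAA, the cell cycle homology region bound by the DREAM complex. Those of Cdc20, with both motifs in capitals, and of Ccnb1, with CCAAT in capitals, are shown, 250 bases before the start, 5′ to 3′ on the strand of the gene, from the same RefSeq table.

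Cdc20 (chr4:118437344-118437593, minus strand): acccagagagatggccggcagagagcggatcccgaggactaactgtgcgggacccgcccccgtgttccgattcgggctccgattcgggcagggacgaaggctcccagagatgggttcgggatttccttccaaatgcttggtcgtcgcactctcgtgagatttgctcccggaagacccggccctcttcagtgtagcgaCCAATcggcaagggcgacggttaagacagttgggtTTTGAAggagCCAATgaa

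Ccnb1 (chr13:100786487-100786736, minus strand): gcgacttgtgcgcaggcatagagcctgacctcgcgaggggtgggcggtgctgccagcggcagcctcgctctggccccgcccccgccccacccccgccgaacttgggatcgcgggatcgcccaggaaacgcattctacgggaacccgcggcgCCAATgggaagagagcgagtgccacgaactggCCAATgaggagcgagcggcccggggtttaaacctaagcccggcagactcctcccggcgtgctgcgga

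In Cdc20, CCAAT stands 53 to 49 and 8 to 4 bases before the start and TTTGAA 18 to 13 bases before it, and in Ccnb1, CCAAT stands 99 to 95 and 67 to 63 bases before it. On either strand, CCAAT was in 18 of the 21 mitosis genes with a promoter in the table (85.7%) and in 9 of 11 higher replication genes (81.8%), against 41.2% of tested genes. TTTGAA was in 8 of the 21 mitosis genes (38.1%), against 12.9%.

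Genes of the amino acid stress response rose nearly as uniformly. ATF4 is the transcription factor that cells activate when amino acids are short or protein folding fails, and its targets make serine, glycine, asparagine and proline and import other amino acids. Of 25 members, all above the filter, 20 were higher and 0 lower in co-culture, with a median of 0.38. With 1 library left out, 18 to 20 were called higher, and the call for Nupr1 was lost without co-culture library 2 or normal-culture library 1 (adjusted p up to 0.0988).

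All 3 enzymes of serine synthesis rose. Phgdh, the enzyme that opens the pathway, stood at 44.9, 42.8 and 44.1 FPKM in co-culture, against 25.1, 28.9 and 27.7 FPKM in normal culture (log2 change 0.67, SE 0.13, adjusted p = 0.00187). Psat1, the next enzyme (ENSMUSG00000024640, chr19:15904678-15947337, minus strand), stood at 64.2, 65.3 and 67.6 FPKM in co-culture, against 33.4, 38.5 and 39.6 FPKM in normal culture (log2 change 0.81, SE 0.11, adjusted p = 3.14e-05). Psph, which releases serine, averaged 14.1 ± 1.05 FPKM in co-culture and 8.76 ± 0.401 FPKM in normal culture (log2 change 0.63). Shmt2, which turns serine into glycine in mitochondria, stood at 36.6, 34 and 35.5 FPKM in co-culture, against 20.5, 21.5 and 23.4 FPKM in normal culture (log2 change 0.68, SE 0.091, adjusted p = 4.01e-05), and Mthfd2, which carries the released carbon on, rose by 0.66. No normal-culture library reached the co-culture range in Phgdh, Psat1 or Shmt2.

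Asns, asparagine synthetase, stood at 71.3, 65.8 and 73.2 FPKM in co-culture, against 43.8, 47.4 and 52.5 FPKM in normal culture (log2 change 0.54, SE 0.094, adjusted p = 0.000556). The pseudokinase gene Trib3, a feedback inhibitor of ATF4, stood at 11.7, 10.8 and 11.2 FPKM in co-culture, against 4.85, 4.75 and 6.34 FPKM in normal culture (log2 change 0.96, SE 0.078, adjusted p = 2.28e-08), the largest change of the list. Both genes were without overlap between the cultures. Slc7a5, an importer of leucine and other large neutral amino acids, averaged 13.8 ± 0.87 FPKM in co-culture and 7.71 ± 0.718 FPKM in normal culture (log2 change 0.77). Ppp1r15a, the phosphatase subunit GADD34 that restores translation, averaged 27.1 ± 0.268 FPKM in co-culture and 15.7 ± 1.17 FPKM in normal culture (log2 change 0.76). Atf4 itself rose by 0.35. The stress factor Ddit3 (CHOP) stood at 21.7, 21.9 and 21.6 FPKM in co-culture, against 20.0, 22.4 and 23.7 FPKM in normal culture and was not called (-0.017, adjusted p = 0.923), nor was the cystine importer gene Slc7a11 (-0.072, adjusted p = 0.768). Among 18 tested genes of endoplasmic reticulum chaperones and their regulators, 3 rose by little, the chaperone BiP gene Hspa5 (0.19), the stress factor gene Xbp1 (0.17) and Pdia6 (0.14). The calls for Xbp1 and Pdia6 were lost without any library but normal-culture library 2 (adjusted p up to 0.219). That for Pdia6 was also lost with no filter (0.0523), in TPM (0.0631), on the 6 compared libraries alone (0.0525) and with a block for the replicate number (0.0559).

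ATF4 acts with C/EBP factors on the composite sequence TGATGNAA, in capitals in the 250 bases before the start of Asns (RefSeq, GRCm38.p6, 5′ to 3′ on the strand of the gene), where it stands 23 to 16 bases before the start.

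Asns (chr6:7693210-7693459, minus strand): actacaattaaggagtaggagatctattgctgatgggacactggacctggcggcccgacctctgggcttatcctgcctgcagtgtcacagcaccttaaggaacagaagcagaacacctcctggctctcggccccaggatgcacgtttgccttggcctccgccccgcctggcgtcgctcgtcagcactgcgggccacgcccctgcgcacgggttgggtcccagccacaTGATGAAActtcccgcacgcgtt

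On either strand this sequence was in 4 of 17 higher ATF4-list genes with a promoter in the table (23.5%; Asns, Chac1, Pycr1 and Nupr1), against 2.38% of tested genes.

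Part of the genes induced by hypoxia and of the glycolysis genes rose. Cells short of oxygen stabilize HIF-1, which raises glucose uptake, glycolysis and lactate export. Of 21 tested hypoxia-induced genes 8 were higher and 0 lower (median 0.19), and of 22 genes of glucose uptake and glycolysis 9 were higher and 1, the lactate transporter gene Slc16a1, was lower (-0.17; median 0.18). Single libraries weighed on these counts: 4 to 7 hypoxia genes were called higher when 1 was left out, with 5 or fewer without co-culture library 3 or normal-culture library 1 or 2. Of the glycolysis genes 5 to 9 were called, with 5 without co-culture library 1 or 3 or normal-culture library 1. The call for Slc16a1 was lost without co-culture library 2 or normal-culture library 3 (adjusted p up to 0.0979) and on the 6 compared libraries alone (0.0505).

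Egln3, an oxygen-sensing prolyl hydroxylase that HIF-1 itself induces, stood at 50.9, 50.9 and 50.3 FPKM in co-culture, against 32.5, 32.2 and 35 FPKM in normal culture (log2 change 0.60, SE 0.097, adjusted p = 0.000292). Ddit4, an inhibitor of mTORC1, stood at 122, 122 and 121 FPKM in co-culture, against 86.1, 76.2 and 90.2 FPKM in normal culture (log2 change 0.53, SE 0.06, adjusted p = 5.16e-06). Bhlhe40, a transcriptional repressor, averaged 41.7 ± 0.738 FPKM in co-culture and 31 ± 1.45 FPKM in normal culture (log2 change 0.42). In each of them the groups were apart. Pgk1, a glycolytic kinase, stood at 1004, 1009 and 997 FPKM in co-culture, against 795, 828 and 855 FPKM in normal culture (log2 change 0.28, SE 0.049, adjusted p = 0.000619), and Slc2a1, the glucose transporter GLUT1, at 109.8, 103 and 104 FPKM in co-culture, against 90.7, 84.7 and 89.7 FPKM in normal culture (log2 change 0.26, SE 0.061, adjusted p = 0.00823). Eno1, enolase, averaged 1097 ± 32.8 FPKM in co-culture and 909 ± 50.6 FPKM in normal culture (log2 change 0.27), and Slc16a3, the lactate exporter MCT4, averaged 102 ± 3.44 FPKM in co-culture and 83.1 ± 7.06 FPKM in normal culture (log2 change 0.30). Vegfa, the angiogenic growth factor, stood at 231, 225 and 231 FPKM in co-culture, against 218, 197 and 205 FPKM in normal culture and was not called (0.15, adjusted p = 0.229), nor was the lactate dehydrogenase gene Ldha (0.18, adjusted p = 0.0565). The call for Bnip3, a mitophagy receptor (0.30, adjusted p = 0.0318), was lost without any of 5 libraries, normal-culture library 3 being the exception (adjusted p up to 0.128), after rescaling to TPM (0.0811) and with no filter (0.0517). Ldha passed without normal-culture library 3 (adjusted p = 0.0216), with median-of-ratios scaling (0.0459) and with a block for the replicate number (0.0381). Vegfa passed on the 6 compared libraries alone (0.0444). The sequence ACGTG, the core that HIF binds, was on either strand of 5 of 6 higher hypoxia genes with a promoter in the table (83.3%) and 5 of 9 higher glycolysis genes (55.6%), against 25.3% of tested genes.

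**Figure D3:**
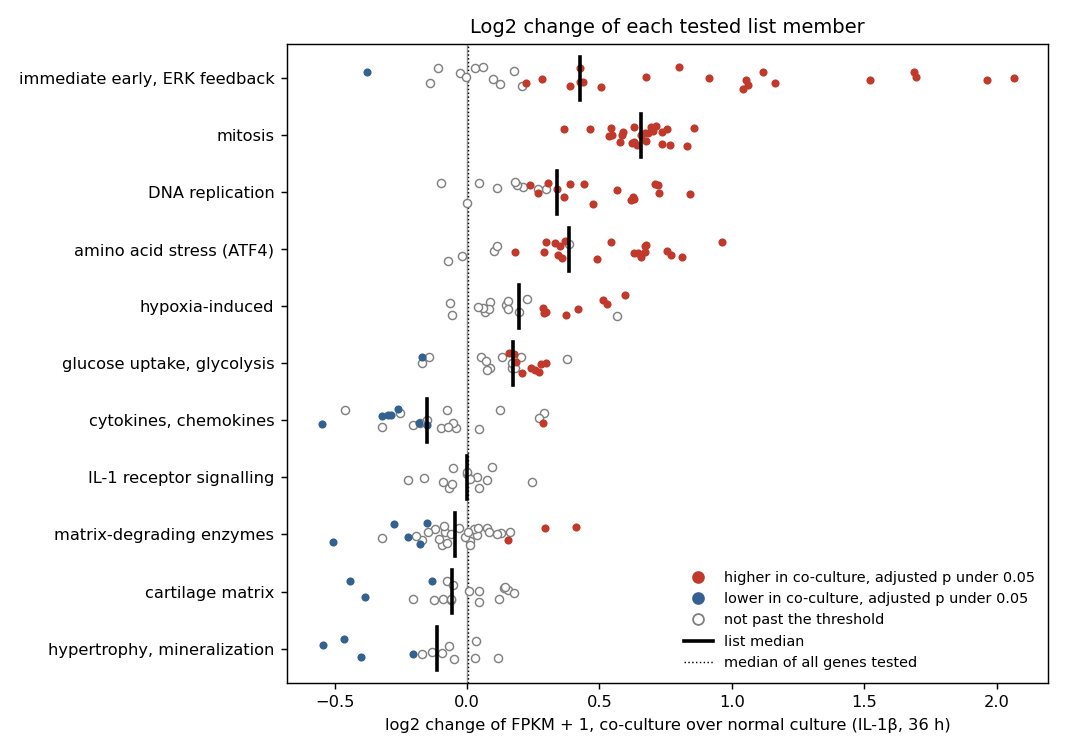
Log2 change in co-culture with IL-1β at 36 h for the members of 11 gene lists; each point is 1 gene, filled where it passed the threshold, with the list median as a thick bar and the median of all genes tested (0.00486) as a dotted line. All 25 mitosis genes are filled and to the right of the dotted line (median 0.66), the immediate early list reaches farthest (2.06), and the cytokine list has its median at -0.15.

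The genes that fell in co-culture changed by less than 2-fold on the log2(FPKM + 1) scale, and in no list were all members called lower. Among lower genes without overlap and with a mean of at least 5 FPKM in normal culture, the 12 with the largest change were Penk, Mcpt8, Clk1, Gzme, Agtr2, Icosl, Igfbp5, Cd80, Cd55, Cacna1g, Pdk4 and Angptl4. Penk, the precursor of enkephalin peptides (ENSMUSG00000045573, chr4:4133531-4138819, minus strand), stood at 22.6, 23.3 and 24.3 FPKM in co-culture, against 48.3, 41.8 and 48.9 FPKM in normal culture (log2 change -0.95, SE 0.16, adjusted p = 0.000495). Clk1, a kinase of splicing factors, stood at 25.9, 22 and 25.7 FPKM in co-culture, against 45.1, 43.4 and 42.9 FPKM in normal culture (log2 change -0.82, SE 0.063, adjusted p = 1.17e-08). The angiotensin II receptor gene Agtr2 stood at 4.8, 4.84 and 5.59 FPKM in co-culture, against 9.75, 7.47 and 8.54 FPKM in normal culture (log2 change -0.65, SE 0.12, adjusted p = 0.00113). In all 3 the groups were separate. Mcpt8 and Gzme, granule protease genes of immune cells, averaged 3.69 ± 0.541 FPKM in co-culture and 7.79 ± 0.668 FPKM in normal culture for Mcpt8 (log2 change -0.91) and 4.54 ± 0.868 FPKM in co-culture and 8.04 ± 0.463 FPKM in normal culture for Gzme (log2 change -0.72). Icosl and Cd80, ligands that co-stimulate T cells, fell by 0.65 and by 0.62 on the log2 scale. Cacna1g, a T-type calcium channel gene, averaged 6.02 ± 0.15 FPKM in co-culture and 9.53 ± 0.713 FPKM in normal culture (log2 change -0.58), and Pdk4, a kinase that inhibits pyruvate dehydrogenase, averaged 5.23 ± 0.61 FPKM in co-culture and 8.22 ± 0.552 FPKM in normal culture (log2 change -0.57). Angptl4, a secreted inhibitor of lipoprotein lipase, averaged 74.2 ± 2.28 FPKM in co-culture and 110.3 ± 7.61 FPKM in normal culture (log2 change -0.56, SE 0.10, adjusted p = 0.00109).

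Secreted mediators of inflammation fell in part. Of 23 tested cytokine and chemokine genes 7 were lower and 1 was higher, with a median of -0.15. Cx3cl1, the membrane-bound chemokine fractalkine, stood at 59.5, 58.7 and 56.6 FPKM in co-culture, against 86.5, 84.8 and 85.8 FPKM in normal culture (log2 change -0.55, SE 0.059, adjusted p = 2.14e-06). Cxcl1, a chemokine for neutrophils, stood at 1221, 1184 and 1229.5 FPKM in co-culture, against 1499, 1487 and 1551 FPKM in normal culture (log2 change -0.32, SE 0.075, adjusted p = 0.00773). Neither showed any overlap. The lower calls of the list were Cx3cl1, Cxcl1, Il33, Cxcl16, Cxcl14, Ccl7 and Csf1, and with 1 library left out 2 to 5 of the list's genes were called lower. Only Cx3cl1 and Cxcl1 kept the call in each of these fits. Cxcl16 lost it without co-culture library 3 (adjusted p = 0.0752), Csf1 without co-culture library 3 or normal-culture library 1 (up to 0.0715), and Cxcl14 without co-culture library 1 or 3 or normal-culture library 1 or 2 (up to 0.0912). Il33 lost it without any library but normal-culture library 2 (up to 0.195), and Ccl7 without any 1 of the 6 (up to 0.196). At a pseudocount of 0.1 Il33 (0.12) and Ccl7 (0.0516) also lost theirs, Il33 also in TPM (0.0627), and Ccl7 also with no filter (0.0684) and with median-of-ratios scaling (0.0565). Lif, a cytokine of the IL-6 family and the only higher member, stood at 108, 105 and 110.4 FPKM in co-culture, against 85.9, 85.4 and 93 FPKM in normal culture (log2 change 0.29, SE 0.09, adjusted p = 0.044). Its call was lost without any 1 of the 6 libraries (adjusted p up to 0.141) and at a pseudocount of 0.1 (0.0565). It was also lost with no filter (0.0702), in TPM (0.132) and with a block for the replicate number (0.0511). Among the complement genes, Cd55, which protects cells from complement, stood at 16.3, 15.1 and 16.6 FPKM in co-culture, against 23.8, 22.6 and 27.4 FPKM in normal culture (log2 change -0.59, SE 0.10, adjusted p = 0.000656), and C3, the central component, fell too (log2 change -0.28, adjusted p = 0.0158). The call for C3 was lost without co-culture library 2 or 3 or normal-culture library 1 (adjusted p up to 0.0577) and at a pseudocount of 0.1 (0.104).

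The main inflammatory outputs of IL-1β were not called. Il6 stood at 557, 550.1 and 622 FPKM in co-culture, against 574, 566 and 721 FPKM in normal culture (log2 change -0.10, adjusted p = 0.592). The acute phase gene Saa3 stood at 7582, 7529 and 7618 FPKM in co-culture, against 8891, 8660.4 and 8782 FPKM in normal culture (log2 change -0.21, SE 0.18, adjusted p = 0.528), and Lcn2, lipocalin 2, changed by -0.20 (adjusted p = 0.322). The groups of Saa3 did not overlap and were each tight. Its SE comes from the spread within all 8 groups of the series, and the change of -0.21 was only a little larger than that SE of 0.18. Ptgs2, cyclooxygenase 2, stood at 508, 500.4 and 538 FPKM in co-culture, against 559.6, 499 and 605 FPKM in normal culture (log2 change -0.10, SE 0.16, adjusted p = 0.761). Nos2, the inducible nitric oxide synthase, stood at 76.7, 74.5 and 77.3 FPKM in co-culture, against 94.4, 89.3 and 102 FPKM in normal culture (log2 change -0.32, SE 0.11, adjusted p = 0.0835). In Nos2 all 3 co-culture libraries were below all 3 of normal culture, and in Ptgs2 the groups overlapped. Fitted on the 6 compared libraries alone, Nos2 (adjusted p = 0.00246), Saa3 (0.0222) and Lcn2 (0.0242) were called lower. A p that misses the threshold does not show that the levels were equal.

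Of 18 tested genes of NF-kB subunits, targets and feedback inhibitors, 1 was lower (Rel, -0.28, a call lost without any library but normal-culture library 2, adjusted p up to 0.137, and in TPM, 0.0611) and 0 were higher, and changes ran between -0.28 and 0.09 with a median of 0.02. Of 14 tested genes of IL-1 receptor signalling, 0 passed limma's adjusted threshold, with 1 higher and 2 lower at an unadjusted p under 0.05 and a median of 0.00. The receptor gene Il1r1 stood at 54.7, 54.1 and 56.9 FPKM in co-culture, against 55.3, 52.6 and 57.8 FPKM in normal culture (adjusted p = 0.996). Of the 15 tested acute phase, prostaglandin and nitric oxide genes, Ptx3 rose (0.22, adjusted p = 0.00826) and Cp, ceruloplasmin, fell (-0.31, adjusted p = 0.0162). The call for Ptx3 was lost without normal-culture library 3 (adjusted p = 0.0527), and that for Cp without co-culture library 1 or 3 or normal-culture library 3 (up to 0.0884).

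Cartilage matrix genes changed little. Of 18 tested members 3 were lower and 0 higher, with a median of -0.06. Hapln1, the link protein that fixes aggrecan to hyaluronan, stood at 9.18, 8.81 and 9.83 FPKM in co-culture, against 12.7, 11.8 and 12.7 FPKM in normal culture (log2 change -0.38, SE 0.073, adjusted p = 0.00141). Epyc, the small proteoglycan epiphycan, stood at 27.9, 25.9 and 28.1 FPKM in co-culture, against 36.9, 38.4 and 37.1 FPKM in normal culture (log2 change -0.44, SE 0.089, adjusted p = 0.00218). For both, every co-culture library was below every normal-culture library. Fmod, fibromodulin, fell by 0.13, a call lost without co-culture library 1 or 3 or normal-culture library 1 or 2 (adjusted p up to 0.118). Col2a1 stood at 129, 131 and 125 FPKM in co-culture, against 118, 119 and 112 FPKM in normal culture and was not called (log2 change 0.14, SE 0.051, adjusted p = 0.0922), although its groups did not overlap. Acan averaged 1.4 ± 0.0473 FPKM in co-culture and 1.18 ± 0.155 FPKM in normal culture (log2 change 0.15, adjusted p = 0.525). Sox9, the transcription factor that drives both, averaged 5.23 ± 0.27 FPKM in co-culture and 6.4 ± 0.271 FPKM in normal culture (log2 change -0.25, adjusted p = 0.0795). Col1a1, of type I collagen, averaged 1753 ± 50.3 FPKM in co-culture and 1623 ± 82.1 FPKM in normal culture (log2 change 0.11, adjusted p = 0.22). On the 6 compared libraries alone, Col2a1 was called higher (adjusted p = 0.0369) and Sox9 lower (0.0191). Sox9 was also called lower with a block for the replicate number (0.0391).

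Prg4, lubricin, the boundary lubricant of joint surfaces, stood at 86.5, 84.9 and 85.8 FPKM in co-culture, against 115, 108 and 118 FPKM in normal culture (log2 change -0.40, SE 0.049, adjusted p = 1.17e-05), and the groups were far apart beside their spread. Its list of 10 tested lubricin and hyaluronan genes held 1 more call, Hmmr (0.57), a hyaluronan receptor that also acts at the mitotic spindle. In the list of hypertrophy and mineralization 4 of 12 tested genes fell and 0 rose, with a median of -0.11. Spp1, osteopontin, stood at 1429.8, 1324 and 1490.4 FPKM in co-culture, against 1895, 1853 and 2115 FPKM in normal culture (log2 change -0.46, SE 0.071, adjusted p = 0.000142). Col10a1, the collagen of hypertrophic chondrocytes, stood at 1.49, 1.12 and 1.12 FPKM in co-culture, against 2.22, 2.04 and 2.53 FPKM in normal culture (log2 change -0.54, SE 0.14, adjusted p = 0.0136), and Alpl, alkaline phosphatase, at 15.4, 13 and 13.8 FPKM in co-culture, against 17.8, 19.7 and 19.1 FPKM in normal culture (log2 change -0.40, SE 0.10, adjusted p = 0.0135). All 3 were lower without overlap, but Col10a1 lost its call without co-culture library 2 or 3 or normal-culture library 3 (adjusted p up to 0.0623). Alpl lost it without co-culture library 2 or 3 or normal-culture library 2 (up to 0.0724). The fourth, the pyrophosphate transporter gene Ank (-0.20, adjusted p = 0.0311), lost it without any library but normal-culture library 2 (up to 0.128) and in TPM (0.0518). Summed osteoblast markers were at 2.6 to 3.4 FPKM in co-culture and 3.43 to 4.27 FPKM in normal culture. Of these markers Bglap, Ibsp and Sp7 are also members of this list, so the sum is not separate from it. Of the 4 tested osteoblast markers 0 were called in limma, with 1 lower at an unadjusted p under 0.05. The part of osteoblast-like cells in the list was not tested.

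The main cartilage-degrading enzymes were not called. Mmp3, stromelysin 1, stood at 2480.2, 2397 and 2602 FPKM in co-culture, against 2695, 2848 and 2865 FPKM in normal culture (log2 change -0.17, adjusted p = 0.536), and Mmp13, collagenase 3, at 413, 394 and 477 FPKM in co-culture, against 533, 471 and 604 FPKM in normal culture (log2 change -0.32, adjusted p = 0.155). The aggrecanase genes Adamts4 (-0.15, adjusted p = 0.082) and Adamts5 (-0.087, adjusted p = 0.491) did not pass either. On the 6 compared libraries alone, Mmp13 was called lower (adjusted p = 0.0405). Of 32 tested matrix-degrading enzymes 5 fell and 3 rose, with a median of -0.04. Cemip, which degrades hyaluronan, stood at 40.9, 43.5 and 40.7 FPKM in co-culture, against 61.5, 57.5 and 59.8 FPKM in normal culture (log2 change -0.51, SE 0.082, adjusted p = 0.000284), with no overlap between the cultures. The others that fell were Ctsd (-0.28), Mmp19 (-0.22), Ctsb (-0.18) and Mmp2 (-0.15), and Mmp8 (0.41), Mmp11 (0.30) and Htra1 (0.16) rose. The call for Mmp8 was lost without co-culture library 2 or normal-culture library 1 (adjusted p up to 0.0912) and at a pseudocount of 0.1 (0.0639). That for Mmp2 was lost without co-culture library 2 or 3 or normal-culture library 1 or 2 (up to 0.0604), that for Htra1 without co-culture library 1 or 2 or normal-culture library 1 or 3 (up to 0.138), and that for Ctsb without any library but normal-culture library 3 (up to 0.167) and with no filter (0.0645).

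Of 14 tested protease inhibitors 4 fell and 2 rose. Serpine2, protease nexin 1, an inhibitor of thrombin and plasminogen activators (ENSMUSG00000026249, chr1:79794197-79861180, minus strand), stood at 559, 541 and 563 FPKM in co-culture, against 822, 797 and 818 FPKM in normal culture (log2 change -0.55, SE 0.085, adjusted p = 0.000162). The gap between the groups was far above the spread within either. The membrane-anchored inhibitor Reck (-0.28), Itih5 (-0.25) and Timp2 (-0.15) also fell, while Serpinb2 (0.40) and the collagen chaperone Serpinh1 (0.18) rose. The call for Itih5 was lost without co-culture library 1 or normal-culture library 1 or 3 (adjusted p up to 0.0876), and those for Serpinb2 and Serpinh1 without any 1 of the 6 (up to 0.137) and with no filter (0.0632 for Serpinb2, 0.0757 for Serpinh1).

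Few growth factor and matrix signalling genes were called lower, though most changes in their lists were below 0. Of 37 tested growth factors and receptors 4 were called lower and 2 higher. In that list 29 changes were below 0, with a median of -0.11, against 0.00486 over all genes tested. Igfbp5, a binding protein of insulin-like growth factors, stood at 21.3, 21.4 and 22.5 FPKM in co-culture, against 33.2, 31.8 and 39 FPKM in normal culture (log2 change -0.64, SE 0.095, adjusted p = 9.45e-05). Igf1 itself stood at 11.8, 11.7 and 13.2 FPKM in co-culture, against 16.8, 14.4 and 16.7 FPKM in normal culture (log2 change -0.36, SE 0.073, adjusted p = 0.00241). Gdf5, the joint-forming BMP ligand, stood at 7.92, 6.59 and 7.68 FPKM in co-culture, against 11.7, 9.66 and 10.1 FPKM in normal culture (log2 change -0.45, SE 0.10, adjusted p = 0.00558). In these 3 genes no library crossed over. Of 26 tested TGF-β and BMP genes 6 were called lower and 1 higher (Smad7, an inhibitor of the pathway, 0.20). In that list 20 of the 26 changes were below 0, with a median of -0.08. The others called lower were Inhbb (-0.38), Tgfb3 (-0.26), Id1 (-0.26), Tgfb2 (-0.25) and Ltbp2 (-0.22). Id1 lost its call without any 1 of the 6 libraries (adjusted p up to 0.142), Smad7 without any but co-culture library 2 (up to 0.101), and Inhbb without normal-culture library 1 (0.0611). Id1 also lost it with no filter (0.0718) and Smad7 in TPM (0.107). Of 21 tested WNT genes Dkk3 (-0.32) and Nkd2 (-0.22) were called lower. All 21 changes were below 0, with a median of -0.05, and 7 were lower and 0 higher at an unadjusted p under 0.05 (limma). Of 31 genes of fibrous matrix Dcn (-0.36), Tnc (-0.28), Thbs1 (-0.23) and Fbln5 (-0.14) were called lower. Tnc and Thbs1 lost their calls without any library but normal-culture library 2 (adjusted p up to 0.187), Fbln5 without co-culture library 2 or normal-culture library 1 or 2 (up to 0.153), and Nkd2 without co-culture library 1 or 3 or normal-culture library 1 or 3 (up to 0.124). In TPM Tnc (0.0589) and Thbs1 (0.073) lost theirs as well, Thbs1 also with no filter (0.083) and with median-of-ratios scaling (0.0547), and Fbln5 on the 6 compared libraries alone (0.0504). Decorin, the Dcn product, binds collagen fibrils and TGF-β, and its gene stood at 1657, 1580.3 and 1658 FPKM in co-culture, against 2054, 2102 and 2108 FPKM in normal culture (log2 change -0.36, SE 0.062, adjusted p = 0.000603). Dcn is also a marker on the dermal fibroblast list, whose sum was lower in co-culture, as given above. That sum is mostly Dcn itself, Col3a1 and Lum, so it is not separate from the fall of Dcn. Of the 15 tested markers of that list 2 were called lower and 0 higher. Among the muscle markers Myh3 (-0.55) and Acta1 (-0.27) were called lower, Acta1 not without co-culture library 1 or 2 or normal-culture library 1 (adjusted p up to 0.0584).

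In each of the other lists 3 genes or fewer passed. Over all genes tested, 6.38% were higher and 4.17% lower. Of 16 tested circadian clock genes 3 fell. Nr1d1, the nuclear receptor REV-ERBα, stood at 14.1, 12.9 and 12.5 FPKM in co-culture, against 19.4, 19.5 and 19 FPKM in normal culture (log2 change -0.52, SE 0.062, adjusted p = 9.77e-06). Its relative Nr1d2 (-0.27) lost its call without co-culture library 1 or normal-culture library 1 (adjusted p up to 0.102). The output factor gene Dbp (-0.38), whose groups overlapped, lost it without co-culture library 3 or normal-culture library 1 or 2 (up to 0.133) and on the 6 compared libraries alone (0.0572). Of 18 tested interferon-stimulated genes 3 fell (Lgals3bp, -0.37; Stat2, -0.36; Irf1, -0.32), and of 14 genes of MHC class I and peptide loading B2m fell (-0.29), a call lost without normal-culture library 2 (adjusted p = 0.0589). The calls for Lgals3bp and Stat2 were lost without co-culture library 3 or normal-culture library 2, and that for Stat2 also without co-culture library 1 (up to 0.0978) and on the 6 compared libraries alone (0.0521). Of 20 contractile and cytoskeletal genes Zyx (0.31), Ccn1 (0.27) and Smtn (0.21) rose. Smtn lost its call without co-culture library 1 or 3 or normal-culture library 3 (adjusted p up to 0.0823). Of 20 p53 targets Btg2 and Plk2 (0.21) rose, both also known as growth factor-induced genes, Plk2 not without normal-culture library 1 (adjusted p = 0.0585) nor in TPM (0.07), while Cdkn1a did not pass. Of 22 NRF2 and antioxidant genes Prdx1 (-0.25) and Gsta4 (-0.25) fell. Mef2c was the 1 lower gene of 17 skeletal transcription factors (-0.19), and of 14 genes of metallothioneins, zinc and iron 0 passed in limma, with 1 higher and 4 lower at an unadjusted p under 0.05. Fitted on the 6 compared libraries alone, counts of lower genes moved to 11 in the cytokine list, 9 among growth factors and receptors, 7 among protease inhibitors, 6 among WNT genes and 6 among p53 targets, and 14 hypoxia genes were higher. With 1 library left out, 1 to 3 genes of the mineralization list, 3 to 6 matrix-degrading enzymes, 1 to 3 genes of fibrous matrix and 1 to 5 interferon-stimulated genes were called lower. The calls for Mef2c and Gsta4 were lost without any 1 of the 6 libraries (adjusted p up to 0.167) and at a pseudocount of 0.1 (0.0501 for Mef2c, 0.0537 for Gsta4). Mef2c also lost it in TPM (0.0607), on the 6 compared libraries alone (0.0628) and with a block for the replicate number (0.0504). Gsta4 also lost it with no filter (0.0674).

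**Figure D4:**
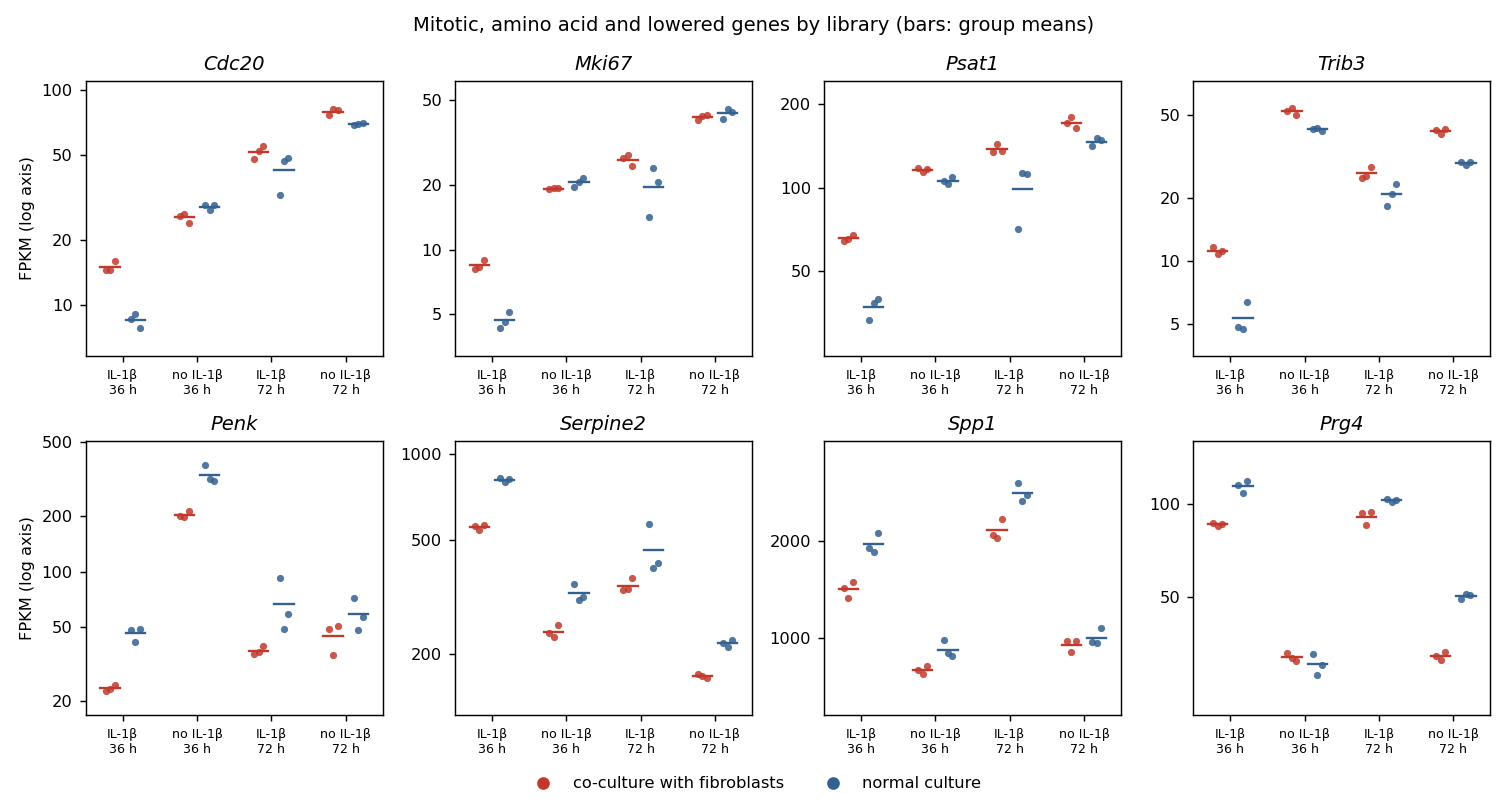
FPKM on a log axis of 8 genes of the other groups in each library, for the same 4 pairs of cultures, co-culture in red to the left of normal culture in blue, bars at group means. With IL-1β at 36 h, Cdc20, Mki67, Psat1 and Trib3 are higher and Penk, Serpine2, Spp1 and Prg4 lower in co-culture (Prg4, 84.9 to 86.5 against 108 to 118 FPKM).

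Genes that respond to IL-1β were compared next, chosen at 72 h in normal culture so that no library is shared with the 36 h comparison. The estimate of spread, taken over all 24 libraries, is still shared. Of the 401 genes (3.29%) that IL-1β raised at least 2-fold there, 42 were higher (10.5%) and 48 lower (12%) in co-culture at 36 h, with a median change of -0.04. Of the 237 genes (1.95%) it lowered at least 2-fold, 24 were higher (10.1%) and 21 lower (8.86%), also with a median of -0.04. Over all genes tested the shares were 6.38% higher and 4.17% lower. Genes of the IL-1β response thus moved in both directions in co-culture. Their counts depended on the fit: of the raised genes 25 to 27 were higher without co-culture library 1 or 3 or normal-culture library 1 or 2, and 91 were lower on the 6 compared libraries alone. Of the lowered genes 13 were lower without normal-culture library 1 and 32 on the compared libraries alone. With a pseudocount of 0.1 or in TPM, 57 lowered genes were higher and 37 lower.

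The effect was then set beside that of co-culture without IL-1β at 36 h, which uses 6 other libraries. Without IL-1β, 765 genes were higher (6.28%) and 1120 lower (9.2%) in co-culture. The 2 effects shared 185 higher genes, 23.8% of the 777 and 24.2% of the 765, and 193 lower genes, 38% of the 508 and 17.2% of the 1120. Another 19 of the 777 were lower and 16 of the 508 higher without IL-1β. The difference between the effects passed for 847 genes (6.96%), with 576 more positive (4.73%) and 271 more negative (2.23%) with IL-1β. Fitted on the compared groups alone it passed for 1176 in the positive and 617 in the negative direction.

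The immediate early genes rose in both settings. Without IL-1β 24 of 31 were higher and 1 lower, with a median of 0.48, and the difference passed for 5 members in each direction. Fos averaged 33 ± 0.0529 FPKM in co-culture and 8.98 ± 0.591 FPKM in normal culture without IL-1β (log2 change 1.77, SE 0.055, adjusted p = 5.39e-16), and its rise was larger with IL-1β (difference 0.29, SE 0.078, adjusted p = 0.0226). Btg2 rose less with IL-1β than without (difference -0.53, SE 0.066, adjusted p = 3.08e-05). Atf3, lower with IL-1β, was higher in co-culture without it (log2 change 0.64, SE 0.093, adjusted p = 4.29e-05), and the difference passed (difference -1.02, SE 0.13, adjusted p = 5.31e-05).

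The rise of cell division genes differed between the settings. Without IL-1β 0 of 25 mitosis genes passed in either direction in limma, and 0 had an unadjusted p under 0.05, with a median of -0.10, and the difference passed in the positive direction for 23 of 25. Of the 25 replication genes 0 passed without IL-1β in limma (0 higher and 5 lower at an unadjusted p under 0.05; median -0.15), and the difference passed for 17. Cdc20 averaged 25.5 ± 1.25 FPKM in co-culture and 28.6 ± 0.982 FPKM in normal culture without IL-1β (log2 change -0.16, SE 0.094, adjusted p = 0.28). For Birc5 the difference was 1.01 (adjusted p = 0.00255) and for Tacc3, a spindle protein, 0.99 (adjusted p = 0.000358). The ATF4 list held 4 higher and 1 lower gene without IL-1β (median 0.08), and the difference was positive for 13 of 25. Psat1 averaged 116 ± 2 FPKM in co-culture and 106 ± 2.81 FPKM in normal culture without IL-1β.

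More hypoxia and glycolysis genes were called without IL-1β than with it. Without IL-1β 17 of 21 hypoxia genes and 17 of 22 glycolysis genes were higher in co-culture, with medians of 0.50 and 0.42, and the difference was negative for 6 and for 8 of them and positive for 0. Egln3 averaged 56.9 ± 0.946 FPKM in co-culture and 16.7 ± 0.907 FPKM in normal culture without IL-1β (log2 change 1.71, SE 0.097, adjusted p = 2.97e-11), and its rise with IL-1β was the smaller (difference -1.11, SE 0.14, adjusted p = 3.15e-05). Ptgs2 and Nos2, not called with IL-1β, and Lif rose in co-culture without it. Ptgs2 averaged 95.7 ± 1.57 FPKM in co-culture and 20.5 ± 1.31 FPKM in normal culture without IL-1β (log2 change 2.17, SE 0.16, adjusted p = 2.68e-09), with a difference between the effects of -2.27 (adjusted p = 3.59e-06). Nos2 averaged 3.35 ± 0.2 FPKM in co-culture and 1.34 ± 0.052 FPKM in normal culture and Lif averaged 11.1 ± 0.529 FPKM in co-culture and 2.82 ± 0.257 FPKM in normal culture without IL-1β. For Nos2 the difference was -1.21 (adjusted p = 7.69e-05) and for Lif -1.38 (adjusted p = 1.07e-06). Prg4 averaged 32.1 ± 1.05 FPKM in co-culture and 30.4 ± 2.37 FPKM in normal culture without IL-1β, and the effects differed (difference -0.48, SE 0.069, adjusted p = 0.000162).

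The same comparison at 72 h with IL-1β, on 6 further libraries, had 879 higher (7.22%) and 641 lower genes (5.26%). The effects of 36 h and 72 h shared 307 higher genes, 39.5% of the 777 and 34.9% of the 879, and 108 lower genes, 21.3% of the 508 and 16.8% of the 641. Of the 777, 34 were lower at 72 h, and of the 508, 12 were higher. The difference between the times passed for 317 genes (2.6%), 185 more positive (1.52%) and 132 more negative (1.08%) at 36 h. Fitted on the compared groups alone it passed for 53 in the positive and 30 in the negative direction, and in TPM for 87 in the negative direction. Without 1 library the positive count fell to 102 (co-culture library 1) or 117 (normal-culture library 1), and the negative count to 65 (co-culture library 1), 82 (co-culture library 2) or 79 (normal-culture library 1). Libraries of the IL-1β groups at 72 h were the more variable, with a residual SD on the log2 scale of 0.119 in co-culture and 0.167 in normal culture, against 0.0886 in co-culture and 0.0994 in normal culture at 36 h.

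No immediate early gene was called higher at 72 h. At that time 0 of 31 were higher (0 also at an unadjusted p under 0.05, limma) and 15 lower in co-culture, with a median of -0.20, and the difference was positive for 22 of 31 and negative for 0. Nr4a1 averaged 39 ± 2.29 FPKM in co-culture and 56 ± 2.41 FPKM in normal culture at 72 h (log2 change -0.51, SE 0.059, adjusted p = 5.66e-05; difference 2.03, SE 0.084, adjusted p = 1.49e-13 between the times). Egr1 averaged 143 ± 3.99 FPKM in co-culture and 157 ± 3.32 FPKM in normal culture at 72 h, with a difference of 2.10 between the times (adjusted p = 1.01e-14). Dusp1 averaged 65.9 ± 4.18 FPKM in co-culture and 87.6 ± 15.5 FPKM in normal culture at 72 h, with a difference of 1.45 (adjusted p = 6.92e-09). In normal culture the means of these 3 genes were higher at 72 h than at 36 h. The test of that difference is not reported here.

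Most cell division and ATF4 genes were called higher at 72 h as well. At 72 h 21 of 25 mitosis genes were higher and 0 lower (median 0.36), with a difference between the times called for 0 in limma (12 positive at an unadjusted p under 0.05) and a list median of 0.28 for that difference. Of the replication genes 15 of 25 were higher at 72 h (median 0.31) and 1 differed between the times. Of the ATF4 genes 16 of 25 were higher (median 0.30) and 4 differed, all more positive at 36 h. Cdc20 averaged 51.6 ± 3.72 FPKM in co-culture and 42.4 ± 8.69 FPKM in normal culture at 72 h, and Psat1 averaged 138 ± 5.41 FPKM in co-culture and 98.7 ± 24.1 FPKM in normal culture. Hypoxia genes were not higher at 72 h (0 higher and 1 lower in limma, 0 and 4 at an unadjusted p under 0.05, median -0.14), and the difference was positive for 7 of 21. Glycolysis genes held 0 higher and 5 lower at 72 h in limma, 0 and 12 at an unadjusted p under 0.05, with 9 positive differences and 1 negative.

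Among the lower genes, Clk1 averaged 29.7 ± 0.531 FPKM in co-culture and 29.8 ± 3.29 FPKM in normal culture at 72 h, and the difference between the times was -0.82 (adjusted p = 4.52e-06). Igf1, lower in co-culture at 36 h, averaged 5.32 ± 0.339 FPKM in co-culture and 4.32 ± 0.273 FPKM in normal culture at 72 h (difference -0.61, SE 0.10, adjusted p = 0.0015). Alpl averaged 31.6 ± 2.01 FPKM in co-culture and 26.1 ± 2.78 FPKM in normal culture at 72 h (difference -0.67, SE 0.14, adjusted p = 0.0122). All 3 differences were negative, that is, the effect was more negative at 36 h.

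**Figure D5:**
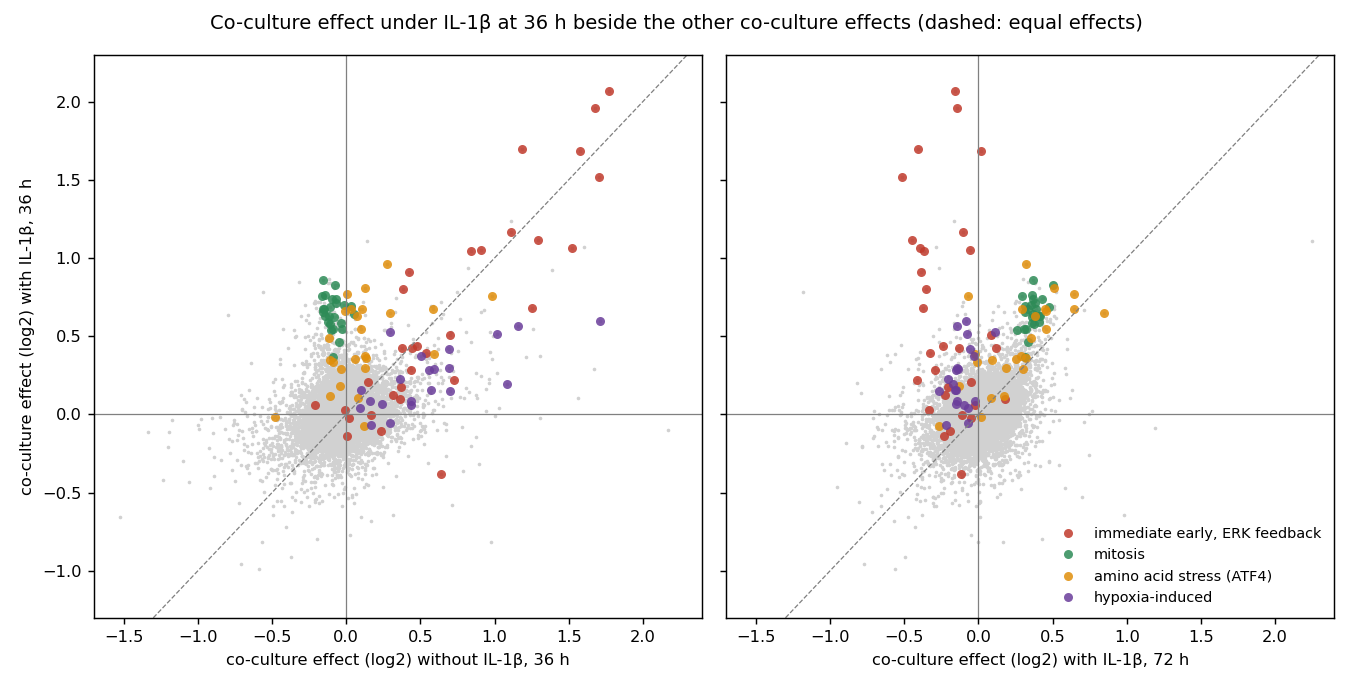
Co-culture effect with IL-1β at 36 h (vertical axis, log2 change of each gene) against the effect without IL-1β at 36 h (left) and with IL-1β at 72 h (right), with 4 lists coloured over all genes in grey and a dashed line where both effects are equal. Mitosis genes lie above the dashed line on the left, where their median without IL-1β is -0.10, and most immediate early genes lie above it on the right (22 of 31 differences passed), where their median at 72 h is -0.20.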

How the data were processed

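The authors sequenced poly(A)-enriched mRNA of mouse primary chondrocytes and deposited 1 table of FPKM values, 17094 genes in 24 libraries. The submitters' processing notes name genome build GRCm38. The sources used here give no aligner, counter, annotation or strand setting, so reads of overlapping or near-identical genes may be shared. Low values of 564 genes did not fall on whole-read steps (of 12811 values, 9.01% within 0.05 of a whole multiple, where chance gives 10%), so depth is unknown and no count test was run.

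The 12178 genes at 1 FPKM or more in at least 3 of the 24 libraries entered limma (version 3.58.1, R 4.3.3, trended prior) as log2(FPKM + 1), with 1 mean per group over all 24 libraries and 16 residual degrees of freedom. The contrasts were co-culture minus normal culture with IL-1β at 36 h, and its differences from the effect without IL-1β and from that at 72 h. The threshold was a Benjamini-Hochberg adjusted p under 0.05. Positions come from GENCODE vM21 and promoters from RefSeq, both on GRCm38, and the plots from matplotlib 3.10.9. On data simulated for this comparison over 12178 genes, 66.4% of genes changed 1.25-fold were recovered, 97.6% at 1.5-fold and 99.6% at 2-fold.

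The 30 functional and 10 marker lists (724 genes) are described by counts and medians, with no set test. Members and lists were chosen with earlier results of these data known. By rule, the text could name 16 core genes, the 12 strongest higher and 12 strongest lower genes without overlap and at 5 FPKM or more, up to 5 changed members and the uncalled members of each list, the 6 strongest differences of effects in each direction, and up to 3 members of each marker list. List members named beyond these were picked after their values were seen. Some list members are not reported here. The alternatives were a pseudocount of 0.1, no filter, a filter at 5 FPKM, TPM rescaling, scaling by the median of ratios, the compared groups alone, a block for the replicate number, and leaving out each library. Chosen after seeing the data was the fit of the compared groups alone with the block.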

Additional observations from a re-analysis of the deposited data

Results flagged for a closer look

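Several changes differed by a limma test of the difference itself (adjusted p under 0.05) between the co-culture effect with IL-1β at 36 h and another co-culture effect. The genes are the 6 with the largest such difference in each direction, on the log2 scale, among those that also passed in the comparison at 36 h with IL-1β and had a mean of at least 5 FPKM in one of its groups. Larger differences of genes outside these limits, such as Ptgs2, are not listed here.

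Between 36 h and 72 h with IL-1β, the effect was more positive at 36 h for Fos (2.22), Egr1 (2.1), Egr2 (2.1), Nr4a1 (2.03), Ier2 (1.67) and Dusp1 (1.45). It was more negative at 36 h for Otor, otoraplin (-1.05), the muscle myosin light chain genes Myl1 (-0.87) and Myl4 (-0.67), the splicing kinase gene Clk1 (-0.82), Mme, the peptidase neprilysin (-0.70), and Alpl (-0.67). Otor stood at 7.61, 8.57 and 7.27 FPKM in co-culture, against 11.3, 12 and 10.3 FPKM in normal culture at 36 h, with a log2 change of -0.47 at 36 h and of 0.58 at 72 h. Myl1 changed by -0.32 at 36 h and by 0.54 at 72 h. Skeletal muscle markers, which moved with Myl1 and Myl4, summed to 253.7 to 276 FPKM in co-culture and 303 to 337 FPKM in normal culture at 36 h, and their part in this was not tested. The 36 h call for Otor was lost at a pseudocount of 0.1 (adjusted p = 0.0886). The 36 h calls for Myl1, Myl4 and Mme were each lost without either co-culture library 1 or 2 (adjusted p up to 0.124 over the libraries left out), for Myl1 also without normal-culture library 2 or 3, and for Myl4 and Mme also without normal-culture library 1 or 3. Fitted on the compared groups only, the differences of Mme and Myl4 between the times no longer passed (adjusted p = 0.0849 for both).

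Between cultures with and without IL-1β at 36 h, the effect was more positive with IL-1β for the mitotic genes Birc5 (1.01), Tacc3 (0.99), Nuf2 (0.98), Pbk (0.97), Cdca3 (0.96) and Cdca8 (0.95). It was more negative for Lif (-1.38), Egln3 (-1.11), Atf3 (-1.02), the T cell ligand gene Icosl (-0.75), the organic cation transporter gene Slc22a4 (-0.73) and the phosphate transporter gene Slc20a1 (-0.68). Slc20a1 averaged 61.3 ± 3.97 FPKM in co-culture and 73.6 ± 1.25 FPKM in normal culture with IL-1β and 26.2 ± 0.311 FPKM in co-culture and 19.5 ± 1.11 FPKM in normal culture without it.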

How the results depend on the processing

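The 150 called genes named above kept their direction in each of the 14 other settings run for the 36 h effect, 5 of them without a value under the filter at 5 FPKM. Of the 150, 100 kept the call whichever library of the 36 h IL-1β groups was left out and 50 lost it in at least 1 of those fits, which hold fewer samples. The depth is unknown, so its share in these limits cannot be given. Without 1 library, the comparison gave 468 to 635 higher and 270 to 359 lower genes, 12 to 14 higher and 0 to 1 lower at 2-fold. Higher counts fell by more than 1.5 times without co-culture library 3 (496) or normal-culture library 1 (468), lower counts without co-culture library 1, 2 or 3 (312, 288 and 275) or normal-culture library 1 (270). In the same fits, the difference from the effect without IL-1β had 421 to 515 positive and 197 to 255 negative genes, and that between times 102 to 165 and 65 to 107. IL-1β-raised genes had 25 to 35 higher and 32 to 40 lower, IL-1β-lowered genes 17 to 20 higher and 13 to 20 lower, and list entries 34 to 46 lower.

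A pseudocount of 0.1 gave 27 higher and 3 lower genes at 2-fold, TPM rescaling 1 lower gene at 2-fold and 87 negative differences between times. Both gave 57 higher and 37 lower among IL-1β-lowered genes. TPM rescaling raised all values above 0 while the pseudocount stayed at 1, so it also lowered the weight of the pseudocount. The compared groups alone gave 1176 positive and 617 negative differences from the effect without IL-1β, 53 and 30 between times, 91 lower among IL-1β-raised genes, 32 lower among IL-1β-lowered genes and 92 lower list entries. Causes of these shifts were not tested. Signs turned for 3 uncalled genes: Il6 (-0.16 to 0.01 without single libraries), Ddit3 (-0.08 to 0.03) and Il1r1 (-0.03 to 0.03, and -0.02 in TPM).

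The labels number replicates 1 to 3 in each group. Same-numbered libraries of the cultures deviated together weakly at most (correlations of 0.0564, 0.0275 and 0.164). Libraries of different number gave -0.153 to 0.0987. The number was not treated as pairing in the main fit, and a block for it was run as an alternative. With the replicate block 781 genes were higher and 519 lower, and on the compared groups alone with the block 1039 and 728, against 962 and 676 without it. The block ended the calls for Lif (adjusted p = 0.0511), Mef2c (0.0504) and Pdia6 (0.0559), while Pcna (0.0472), Sox9 (0.0391) and Ldha (0.0381) passed with it, and Mmp3 (0.0464) and Jund (0.023) on the compared groups with it. Co-culture library 1 correlated best with normal-culture library 2 (0.0987).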
